A study of Mus musculus with 6 samples.

Results

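The acrosome is the secretory cap of the sperm head. Of the 34 genes described here, some encode its contents and membranes, and some the Golgi traffic that builds it. The rest encode nuclear envelope, cytoskeletal and other proteins of the spermatid. Members were chosen by name, as every probe set whose platform gene symbol is exactly one of the 34. They matched 63 of the 45101 probe sets on the array, of which 57 passed the filter on low values. Every member had at least 1 tested probe set, so that the 34 genes are 34 of the 13897 genes tested. One further probe set was annotated to Acrbp together with another gene and was left out.

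The values came from whole testes of 12 week old mice, 3 wild-type mice (WT) and 3 Alkbh1 knockout mice (KO, genotype Alkbh1-/-), with 1 Affymetrix array per mouse. Both groups had the C57/BL6 background, and the genotype field of the labels spells it C53/BL6 in all 6 samples. No other allele or treatment is named, and neither the deleted part of Alkbh1 nor the relation between the mice is given in the sources used here. Alkbh1 encodes a dioxygenase of the AlkB family, and the comparison asked how its loss changed transcript levels in the testis. Each value is a normalized log2 level of 1 probe set, a group of short probes against 1 or more transcripts, so that a difference of 1 would be a doubling. Differences between mice are taken within a probe set. Because probes differ in brightness, the mean level of a probe set is used only to filter, to choose 1 probe set per gene and to find other genes of similar signal, and does not order genes by transcript abundance.

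In the round spermatid, the haploid germ cell that follows meiosis, vesicles from the Golgi fuse on the nucleus and spread into the acrosome. Its matrix stores proteases and their binding partners, and its membranes carry proteins that meet the coat and the membrane of the egg. Loss of several of the traffic or anchoring genes leaves sperm with round heads and no acrosome. Transcription of many of these genes is tied to the factor CREM, which binds the cAMP response element.

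The knockout was seen in the target itself. Alkbh1 read 8.43, 8.65 and 8.72 in WT and 5.76, 5.30 and 5.20 in KO, a difference of −3.18 ± 0.15 log2 (KO minus WT, SE; limma adjusted p = 0.000582). Control signals set 2 WT arrays apart. The poly-A control RNAs averaged 6.70 in WT replicate 1, 9.57 in WT replicate 2 and between 7.69 and 8.24 for the remaining mice. WT replicate 1 also had the lowest hybridisation controls, 10.49 where the rest had 10.85 to 10.95, and the lowest 99th percentile of all values, 12.96 where the rest had 13.08 to 13.10. The Gapdh signal at its 3′ end exceeded that at its 5′ end by 0.34 in WT replicate 2 and by 0.066 to 0.16 in the rest. Without WT replicates 1 and 2 the Alkbh1 call was lost (−3.30 log2, limma adjusted p = 0.0631), with a single WT array left. The haploid germ cell markers Prm1 and Prm2, the protamine genes, had a mean log2 of 14.98 and 14.95, near the top of the scale, and all 34 acrosome and round spermatid genes lay above the level filter.

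No acrosome or round spermatid gene passed the test of KO against WT. Of the 57 tested probe sets 0 passed (limma, Benjamini-Hochberg adjusted p under 0.05), where 0.0407% of all 27022 probe sets did, and 5 had an unadjusted p under 0.05, where 5.11% of all did. The smallest adjusted p among them was 0.863. Over all probe sets 11 passed, a number that dropped to 4 on leaving out WT replicate 3, to 6 on leaving out KO replicate 1 and to 2 on leaving out KO replicate 3. Of the 13897 genes 0.0432% passed. The differences were small and mostly positive. Of the 34 genes, each represented by its brightest probe set, 29 stood higher in KO (85.3%) and 5 lower, with a median difference of 0.079 log2 and a range from −0.090 (Vps54) to 0.23 (Lyzl6, 1.18-fold). Over all 13897 genes 55.9% stood higher, with a median of 0.012. With quantile normalization 25 of the 34 stood higher and the median was 0.042. Without WT replicates 1 and 2, 20 of 34 stood higher and the median was 0.013. In whole testis, a lower share of a cell type and less RNA per cell cannot be told apart.

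The precision was high enough to bound these differences. The interval of the difference stayed within 0.5 log2 (1.41-fold) of zero for all 34 genes, a bound not set in advance. Its median width to either side was 0.16 log2. Before adjustment the interval excluded zero for 3 genes (5.51% of all genes had an unadjusted p under 0.05), namely Lyzl6, Zpbp2 and Acr. Leaving out WT replicate 2 brought the member probe sets with an unadjusted p under 0.05 from 5 to 0. Dpy19l2 had the widest interval, from −0.29 to 0.48. For 28 of the 34 genes the range among the 3 WT mice was larger than the difference between the genotypes, and for 22 the range among the 3 KO mice was. The same share over all genes was not counted. The median range of the 34 was 0.16 log2 in WT and 0.097 in KO, against 0.18 and 0.13 over all genes.

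**Figure D1:**
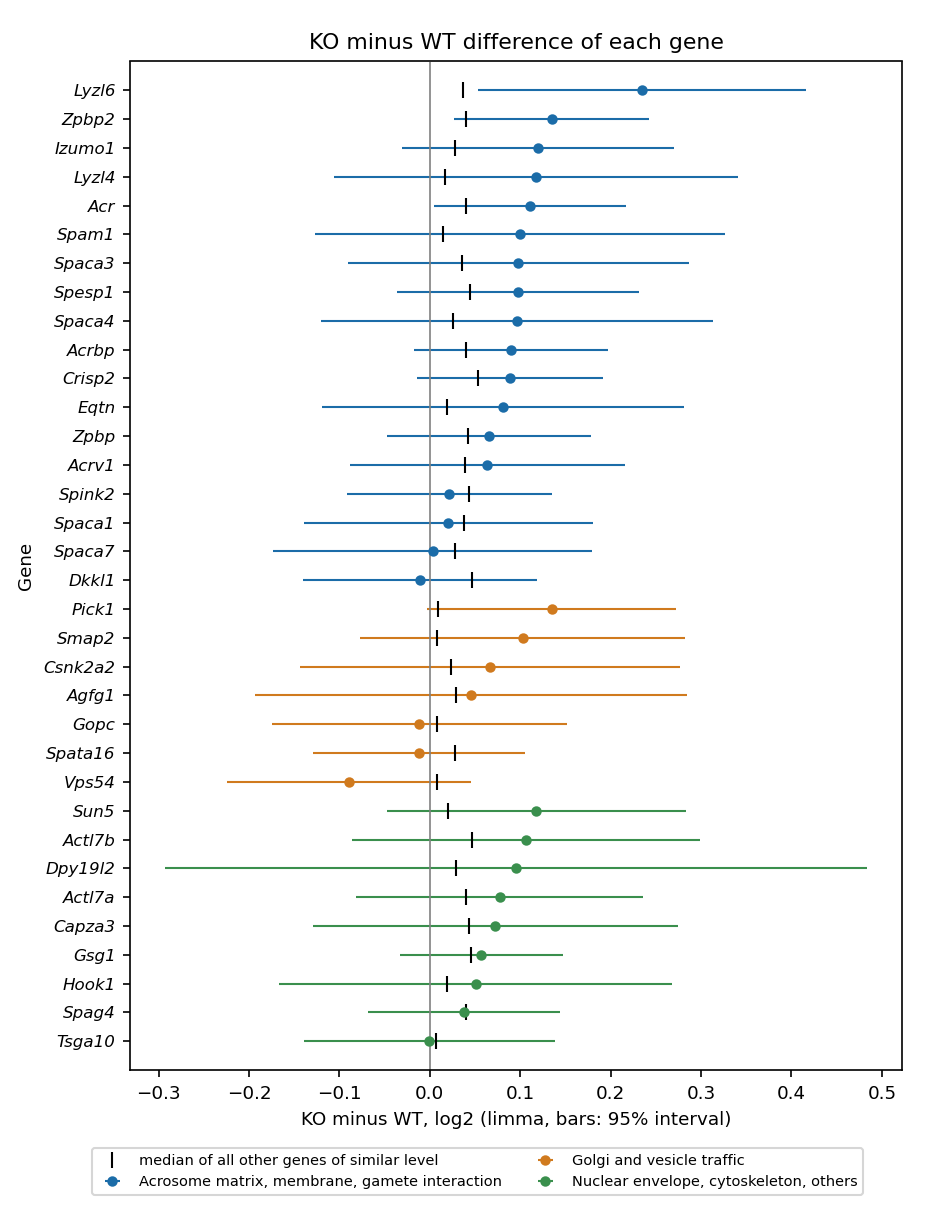
KO minus WT difference in log2 for each of the 34 genes (points, coloured by role) with its 95% limma interval (bars), and the median difference of all other genes of similar mean level (black ticks). The point of Lyzl6 lies farthest to the right (interval 0.054 to 0.42) and that of Vps54 farthest to the left (−0.22 to 0.045).

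Groups without overlap were found for 9 of the 34 genes (26.5%), against 12.2% of all genes tested. In 8 of them KO was higher (23.5%, against 7.95% of all genes), namely Lyzl6, Zpbp2, Acr, Crisp2, Acrbp, Izumo1, Pick1 and Gsg1, and in 1 it was lower, Vps54 (2.94%, against 4.24%). The background itself depends on brightness. Among other genes with a mean log2 from 12 to 13, KO lay above WT without overlap in 11.1% and below it in 0.584%, while from 8 to 9 the shares were 6.89% and 4.86%.

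Bright genes in general stood slightly higher in KO, a shift that depended on WT replicate 1. The median difference of other genes was 0.0026 log2 at a mean level from 8 to 9, 0.017 from 10 to 11, 0.037 from 12 to 13 and 0.047 above 13, where 90.2% of 316 genes stood higher. The means of the 34 genes ran from 9.00 (Vps54) to 14.39 (Crisp2), with a median of 11.92, against a median of 8.74 over all genes. Each was therefore set beside all other genes within 0.25 log2 of its own mean, between 20 and 1238 genes. The median of these level medians was 0.032, so that the members stood 0.047 log2 above genes of similar level, and 25 of the 34 lay above their own level median. This excess depended on WT replicate 2. It was 5.7e-05 without that array, 0.017 without KO replicate 1 and 0.024 without WT replicates 1 and 2, and from 0.043 to 0.059 when any one of the other 4 arrays was left out. The level median itself was −0.0058 without WT replicate 1. With quantile normalization the level median was 0.0036 and the excess was 0.039.

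**Figure D2:**
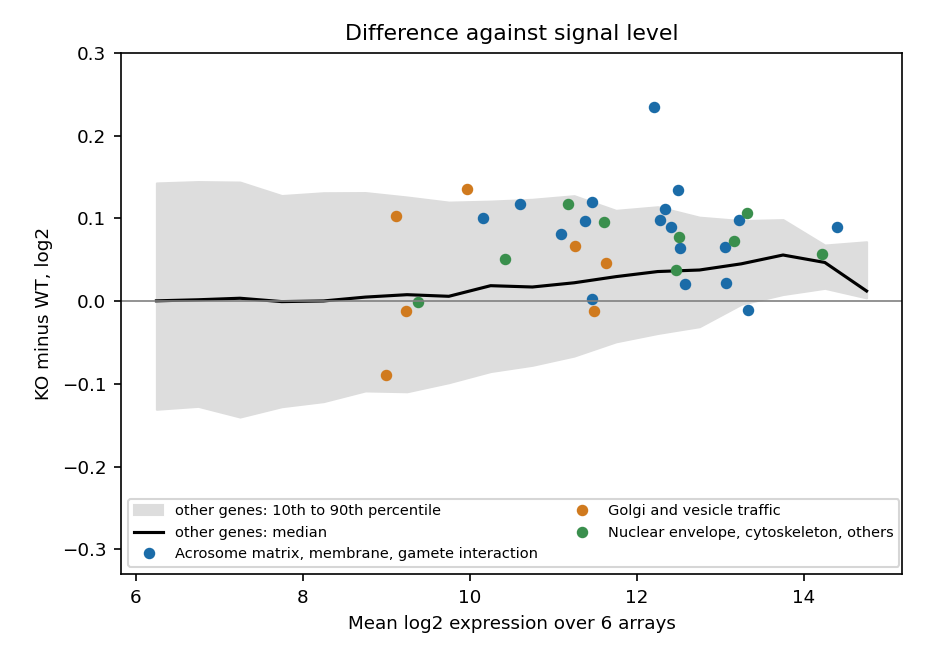
KO minus WT difference in log2 against mean log2 level over the 6 arrays, for the 34 genes (coloured points) and for all other genes (black line, median, and grey band, 10th to 90th percentile, in windows of level). The median of other genes moves from near 0 at low level to 0.045 at a level of 13.25, and most coloured points lie above it.

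The low values of these genes lay mostly in 2 of the WT mice. As a mean over the 34 genes, the deviation from the gene's own average was −0.082 log2 in WT replicate 1, −0.052 in WT replicate 2 and 0.029 in WT replicate 3. It was 0.062, 0.020 and 0.023 in KO replicates 1, 2 and 3. WT replicate 3 thus lay among the KO mice. The lowest value of a gene fell on WT replicate 1 for 18 members (52.9%, against 32.5% of all genes) and on WT replicate 2 for 13 (38.2%, against 21.0%). The highest value fell on KO replicate 1 for 16 (47.1%, against 19.0%).

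Genes of similar level, taken over the windows of all 34 members, shared the low values of WT replicate 1 but not those of WT replicate 2. Their mean deviations were −0.093, 0.019 and 0.028 in WT and 0.012, 0.0099 and 0.024 in KO. The 18 genes of the acrosomal matrix, membranes and gamete interaction stood at −0.056, −0.093 and 0.021 in WT and at 0.098, 0.017 and 0.012 in KO. Other genes at the levels of these 18 read −0.102, 0.020 and 0.030 in WT and 0.013, 0.014 and 0.025 in KO. The 7 Golgi and vesicle genes read −0.091, 0.0025 and 0.037 in WT and 0.011, 0.0098 and 0.030 in KO. Other genes within 0.25 log2 of these 7 read −0.066, 0.018 and 0.023 in WT and 0.0083, −0.0017 and 0.019 in KO. The 9 genes of nuclear envelope, cytoskeleton and other roles read −0.13, −0.011 and 0.037 in WT and 0.028, 0.033 and 0.041 in KO. Other genes at the levels of these 9 read −0.097, 0.019 and 0.028 in WT and 0.013, 0.012 and 0.025 in KO. Among the role groups, only that of acrosome contents and membranes was lowest in WT replicate 2 and highest in KO replicate 1. Such values on these arrays were not particular to it. Macrophage markers read −0.16 in WT replicate 2, 0.11 in KO replicate 1 and 0.12 in KO replicate 3.

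**Figure D3:**
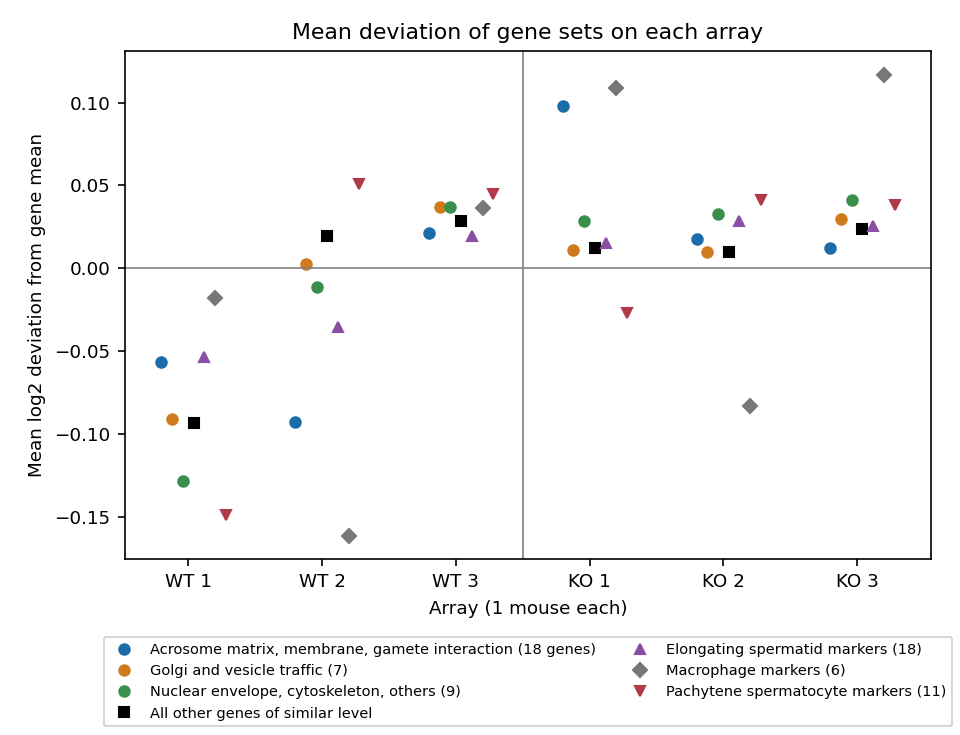
Mean log2 deviation of gene sets from each gene's average over 6 arrays (vertical axis) on each array (horizontal axis, 1 mouse each), for the 3 role groups, all other genes of similar level, and markers of elongating spermatids, pachytene spermatocytes and macrophages. The matrix and membrane genes are lowest in WT 2 (−0.093) and highest in KO 1 (0.098), while genes of similar level are lowest in WT 1 (−0.093).

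Other cell types moved with the arrays as well. Markers of elongating spermatids (18 of 18 measured) read −0.053, −0.036 and 0.019 in WT and 0.015, 0.029 and 0.025 in KO. Of these, 17 of 18 stood higher in KO, with a median difference of 0.044, and 0 were called. They are bright, with mean log2 levels from 11.94 to 14.98 and a median of 14.05. Among genes outside the acrosome list with a mean log2 above 13, 90.2% stood higher, with a median of 0.047. The direction of these markers was that of bright genes in general. In WT replicate 2 they lay low (−0.036), where other genes at the levels of the acrosome genes did not (0.019). Pachytene spermatocyte markers (11 of 12 measured) read −0.15, 0.051 and 0.045 in WT and −0.027, 0.041 and 0.038 in KO. Macrophage markers, all 6 measured and all 6 higher in KO with 0 called, read −0.018, −0.16 and 0.036 in WT and 0.11, −0.083 and 0.12 in KO, so that they too were lowest in WT replicate 2. Leydig cell markers (6 of 8 measured, 3 higher in KO, 0 called) read 0.21, −0.20 and 0.052 in WT and −0.032, −0.13 and 0.11 in KO. Sertoli cell markers, all 14 measured and 10 lower in KO, read −0.00053, 0.055 and 0.038 in WT and −0.014, −0.046 and −0.033 in KO. The part of cell composition, or of the control signals above, in the values of the acrosome genes was not tested.

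Within the 34 genes 2 patterns over the mice stood out, both described after the values were seen. For 11 genes WT replicate 2 was lowest and KO replicate 1 highest (32.4%, against 6.44% of all genes). These were Spaca1, Spaca3, Spaca4, Acrv1, Acrbp, Lyzl4, Lyzl6, Spam1, Actl7b, Sun5 and Smap2. For 9 others WT replicate 1 was lowest and WT replicate 2 lay above the gene's average, a pattern of 23.5% of all genes. These were Agfg1, Csnk2a2, Dpy19l2, Hook1, Capza3, Dkkl1, Spink2, Spag4 and Spaca7.

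**Figure D4:**
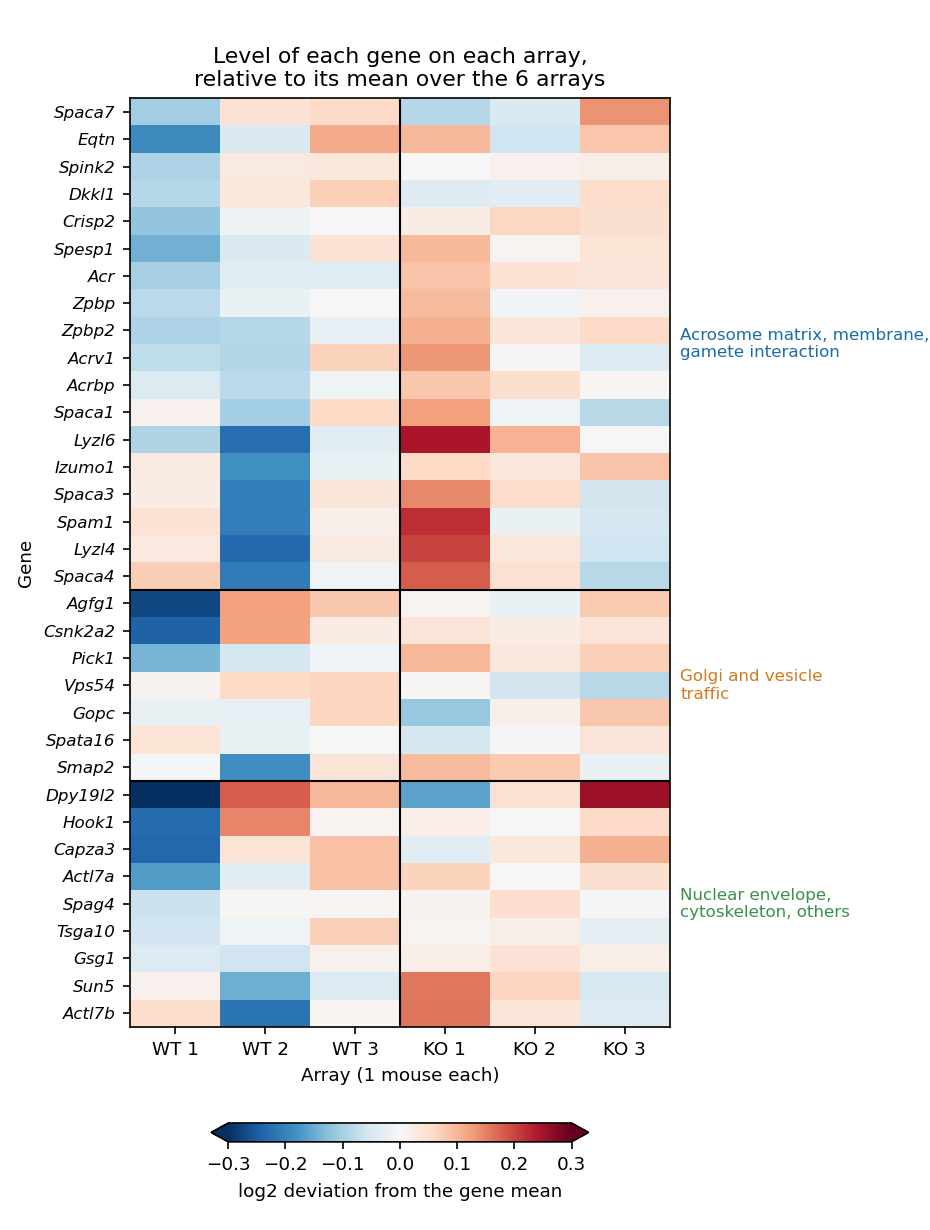
Log2 deviation of each of the 34 genes (rows, grouped by role and, within a role, ordered by WT 1 minus WT 2) from its mean over the 6 arrays (columns, 1 mouse each), blue below and red above the mean, with the scale ended at 0.3. Blue cells concentrate in WT 1 and WT 2. The genes that are bluest in WT 2, such as Lyzl4 and Spaca4, are red in KO 1, while Gopc and Spata16 are below their mean in both.

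Among the acrosomal proteases and their partners, Acr and Acrbp were slightly higher in KO without overlap and Spink2 was level. Acr encodes acrosin, the serine protease of the matrix. It read 12.24, 12.31 and 12.31 in WT and 12.43, 12.39 and 12.38 in KO, a difference of 0.11 ± 0.05 (limma adjusted p = 0.961). Acrbp encodes the protein that binds and packs proacrosin. Its brighter probe set read 12.37, 12.33 and 12.40 in WT and 12.49, 12.46 and 12.42 in KO, and its second one 10.82, 10.81 and 10.93 against 11.05, 11.03 and 10.98. Both Acrbp probe sets were higher in every KO mouse than in any WT mouse, by 0.090 and 0.17, and neither passed (limma adjusted p = 0.993 and 0.863). Spink2 encodes the inhibitor that restrains acrosin. It read 12.97, 13.09 and 13.10 in WT and 13.07, 13.08 and 13.09 in KO, where the KO mice lay close together within the WT range.

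Among the zona-binding and lysozyme-like genes, Lyzl6 and Zpbp2 were slightly higher in KO without overlap, and Zpbp, Lyzl4 and Spaca3 overlapped between the groups. Zpbp2, a zona pellucida binding protein gene, read 12.40, 12.41 and 12.47 in WT and 12.61, 12.53 and 12.55 in KO, which is 0.13 ± 0.05 higher with no overlap (limma adjusted p = 0.890). Its paralogue Zpbp read 12.97, 13.04 and 13.06 in WT and 13.15, 13.05 and 13.07 in KO, where KO replicate 2 lay between WT values. Lyzl6, a lysozyme-like gene, read 12.11, 11.97 and 12.17 in WT and 12.45, 12.31 and 12.21 in KO, with all KO mice above all WT mice. Its difference of 0.23 ± 0.08 was the largest of the 34 (limma adjusted p = 0.863). The other 2 Lyzl6 probe sets stood at 0.14 and 0.17, and only the second of these was free of overlap. Lyzl4 read 10.63, 10.37 and 10.63 in WT and 10.80, 10.63 and 10.54 in KO, so that KO replicate 3 lay inside the WT range. Spaca3, the lysozyme-like acrosomal protein gene, read 12.29, 12.07 and 12.31 in WT and 12.42, 12.33 and 12.22 in KO. All 3 lysozyme-like genes had their low value in WT replicate 2 and their high value in KO replicate 1. Differences stood at 0.12 ± 0.10 for Lyzl4 and 0.098 ± 0.081 for Spaca3, both within the spread between mice, and without WT replicate 2 they were 0.031 and 0.020.

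Genes of the gamete membranes varied by mouse more than by genotype. Izumo1 encodes the sperm protein that binds the egg receptor for fusion. It read 11.49, 11.28 and 11.44 in WT and 11.52, 11.49 and 11.55 in KO, with the lowest KO value just above the highest WT value (0.12 ± 0.06, limma adjusted p = 0.993). Without WT replicate 2 the difference was 0.058. Spaca4, a membrane protein gene of the acrosome, read 11.45, 11.17 and 11.37 in WT and 11.56, 11.42 and 11.29 in KO, with the groups interleaved. Spam1, the sperm hyaluronidase, read 10.21, 9.96 and 10.18 in WT and 10.39, 10.14 and 10.11 in KO, again with WT replicate 2 lowest and KO replicate 1 highest. Without WT replicate 2 the differences of Spaca4 and Spam1 went from 0.096 and 0.10 to 0.016 and 0.021. Spaca1 read 12.59, 12.47 and 12.64 in WT and 12.70, 12.57 and 12.49 in KO. Its difference of 0.020 ± 0.069 turned to −0.026 without WT replicate 2 and to −0.036 without KO replicate 1.

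The remaining matrix and equatorial genes differed by less than 0.1 log2. Crisp2, a cysteine-rich secretory protein gene, read 14.28, 14.38 and 14.39 in WT and 14.41, 14.46 and 14.44 in KO, a difference of 0.089 ± 0.044 (limma adjusted p = 0.993) without overlap, which was 0.027 with quantile normalization. Dkkl1, which encodes an acrosomal relative of the Dickkopf proteins, read 13.25, 13.37 and 13.41 in WT and 13.30, 13.30 and 13.39 in KO and was the only gene of the 18 that stood lower, by 0.011. Acrv1, the SP-10 antigen of the matrix, read 12.45, 12.43 and 12.59 in WT and 12.65, 12.52 and 12.48 in KO. Spesp1 (0.098) and Eqtn (0.081), both of the equatorial segment, and Spaca7 (0.0031) overlapped between the groups. Eqtn stood at −0.073 and Acrv1 at −0.036 when WT replicates 1 and 2 were left out. Of the 18 genes of matrix, membranes and gamete interaction 17 stood higher in KO (median 0.093), and 0 passed, where 0.0432% of all genes did. Among other genes of their levels 73.6% stood higher, with a median of 0.038. Groups did not overlap for 6 of the 18 (33.3%, against 12.2% of all genes), each higher in KO.

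**Figure D5:**
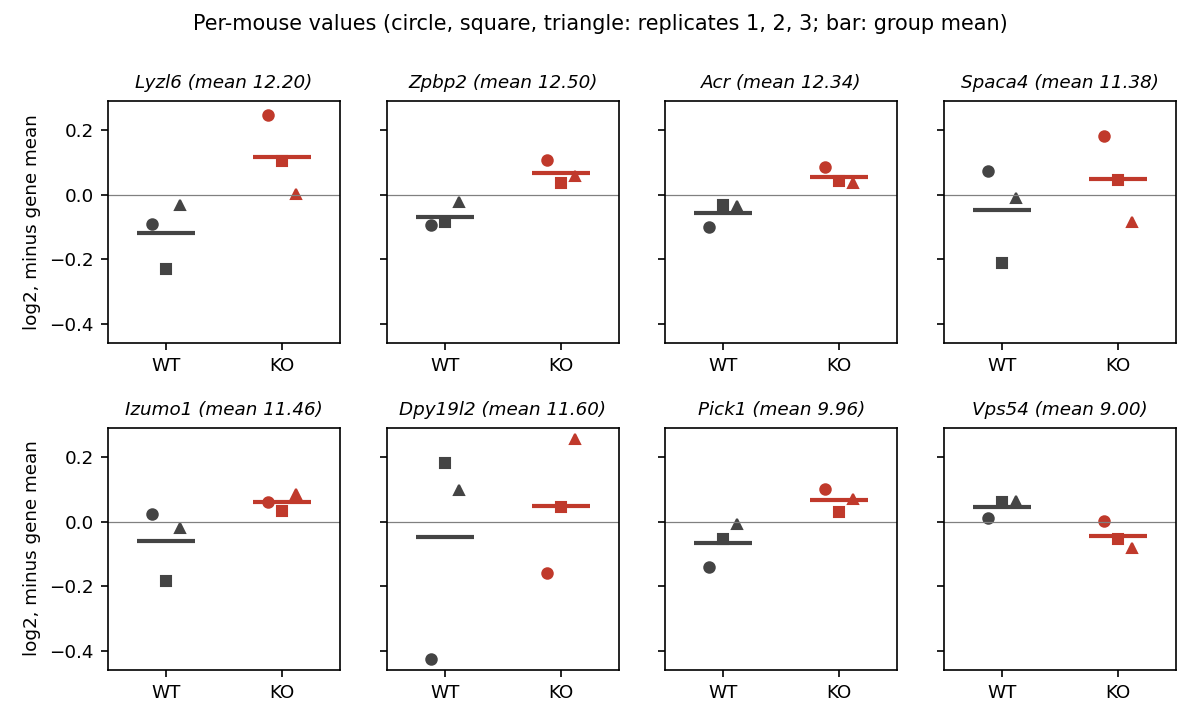
Log2 value of 8 genes in each mouse, minus the gene's mean over 6 arrays (mean in the panel titles), with WT in grey and KO in red, symbols for replicates 1 to 3 and bars for group means. Zpbp2, Acr, Lyzl6, Izumo1 and Pick1 have every KO point above every WT point, Vps54 has every KO point below, and Dpy19l2 and Spaca4 overlap widely.

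The Golgi and vesicle genes showed no common direction, with 4 of 7 higher and 3 lower in KO (median 0.045) and 0 called. Among other genes of their levels 54.8% stood higher, with a median of 0.0089. Groups did not overlap for 2 of the 7 (28.6%, against 12.2% of all genes), 1 in each direction. Pick1, a BAR and PDZ domain protein of proacrosomal vesicles, read 9.82, 9.91 and 9.95 in WT and 10.06, 9.99 and 10.03 in KO, which is 0.13 ± 0.06 higher without overlap (limma adjusted p = 0.981). Its partner gene Gopc, a Golgi PDZ protein gene, read 9.21, 9.21 and 9.30 in WT and 9.12, 9.25 and 9.32 in KO, with the KO mice on both sides of the WT range. Vps54 encodes a subunit of the GARP tethering complex and is mutated in the wobbler mouse. It read 9.01, 9.06 and 9.06 in WT and 9.00, 8.94 and 8.91 in KO, a difference of −0.090 ± 0.058 (limma adjusted p = 0.993). A second Vps54 probe set also lay lower in every KO mouse (−0.12), while the dimmest tested one stood at 0.047 with overlap. Smap2, an Arf GTPase activating protein gene, read 9.11, 8.93 and 9.16 in WT and 9.21, 9.20 and 9.10 in KO, and its difference of 0.10 was 0.035 without WT replicate 2.

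The vesicle fusion gene Agfg1 and the kinase gene Csnk2a2 depended on 1 mouse. The brightest Agfg1 probe set read 11.36, 11.75 and 11.71 in WT and 11.64, 11.61 and 11.71 in KO, and its difference of 0.045 became −0.080 without WT replicate 1. Csnk2a2, the alpha prime catalytic subunit of casein kinase 2, read 11.02, 11.38 and 11.28 in WT and 11.30, 11.28 and 11.30 in KO. Its difference of 0.067 became −0.038 without the same mouse. Over the 6 tested probe sets of Csnk2a2 differences ran from −0.065 to 0.15, and over the 5 of Agfg1 from −0.093 to 0.10. Spata16, a Golgi protein gene needed for the acrosome, read 11.53, 11.47 and 11.49 in WT and 11.44, 11.49 and 11.53 in KO, so that the WT range lay within the KO range save for its highest value.

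Genes of the nuclear envelope and cytoskeleton were higher in KO in 8 of 9 cases (median 0.072), with 0 called. Among other genes of their levels 73.7% stood higher, with a median of 0.040. Groups did not overlap for 1 of the 9 (11.1%, against 12.2% of all genes). Dpy19l2 encodes the inner nuclear membrane protein that anchors the acrosome. It varied most between mice, with 11.18, 11.79 and 11.70 in WT and 11.45, 11.65 and 11.86 in KO. Its WT range of 0.61 log2 exceeded the difference of 0.096 ± 0.167, which became −0.093 without WT replicate 1. The manchette gene Hook1 read 10.20, 10.57 and 10.43 in WT and 10.44, 10.42 and 10.48 in KO. The actin capping gene Capza3 read 12.93, 13.20 and 13.25 in WT and 13.13, 13.20 and 13.27 in KO. In both, WT replicate 1 alone lay below the KO mice, and without it the differences became −0.052 for Hook1 and −0.027 for Capza3.

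The SUN domain and actin-related genes of this group overlapped between genotypes. Sun5, of the spermatid nuclear envelope, read 11.19, 11.03 and 11.14 in WT and 11.34, 11.24 and 11.13 in KO (0.12 ± 0.07, limma adjusted p = 0.993). Spag4, another SUN domain gene, read 12.41, 12.48 and 12.48 in WT and 12.49, 12.52 and 12.47 in KO. The actin-related gene Actl7a read 12.33, 12.46 and 12.59 in WT and 12.57, 12.50 and 12.55 in KO, while its neighbour Actl7b read 13.38, 13.10 and 13.33 in WT and 13.49, 13.36 and 13.29 in KO. The lowest mouse was WT replicate 1 for Actl7a and WT replicate 2 for Actl7b. Their differences of 0.077 and 0.11 became 0.013 for Actl7a without WT replicate 1 and 0.023 for Actl7b without WT replicate 2. Gsg1, which encodes a partner of the testis poly(A) polymerase, read 14.17, 14.16 and 14.23 in WT and 14.24, 14.26 and 14.23 in KO, with the lowest KO value just above the highest WT value. Its difference of 0.057 was 0.0026 with quantile normalization. Tsga10 differed by −0.00057 ± 0.06 and was the member nearest to no difference.

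Where a gene had several tested probe sets they did not always share a direction. They stood on both sides of zero in Csnk2a2 (−0.065 to 0.15), Agfg1 (−0.093 to 0.10), Vps54 (−0.12 to 0.047) and Gopc (−0.012 to 0.045). In the remaining genes with several they shared a sign. Of the 34 genes 12 had more than 1 tested probe set, and the differences within a gene lay between 0.016 log2 (Spesp1) and 0.21 log2 (Csnk2a2) apart. The 2 Spaca3 probe sets stood at 0.098 and 0.16, and the dimmer one, at a mean log2 of 6.36, had no overlap between the groups. The 6 probe sets under the level filter belonged to Csnk2a2, Pick1, Zpbp, Zpbp2 and Vps54 and had means from 3.85 to 5.52, near the lower end of the scale.

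Acrosome genes outside the 34 stood slightly higher in KO on balance, with a smaller median. Of 46 further genes listed for acrosome formation and gamete interaction 41 were measured. Of these 31 stood higher in KO (75.6%), with a median of 0.043 against 0.012 for all genes and 0.018 for genes of their own levels, 59.97% of which stood higher. Of the 41, 4 did not overlap (9.76%, against 12.2% of all genes) and 0 passed (1 at an unadjusted p under 0.05). Their mean deviations, −0.079, −0.0046 and 0.041 in WT and 0.0014, 0.0092 and 0.032 in KO, lay near zero in WT replicate 2 and in KO replicate 1. Single genes of this set, Lyzl1, Zp3r and Spata46, had WT replicate 2 lowest and KO replicate 1 highest. That pattern was held by 6.44% of all genes. Stx2, a syntaxin of membrane fusion, read 9.20, 9.49 and 9.46 in WT and 9.59, 9.57 and 9.68 in KO, a difference of 0.23 ± 0.09 (limma adjusted p = 0.918), which was 0.14 without WT replicate 1. Tmem190, an inner acrosomal membrane protein gene, stood at 0.12 ± 0.05, also without overlap. Cylc1, a perinuclear theca gene on the X chromosome, read 7.85, 8.09 and 8.14 in WT and 7.58, 7.73 and 7.96 in KO, a difference of −0.27 ± 0.12 with overlap. None of the 34 members lies on the X or Y chromosome.

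Regulators of spermatid genes did not pass either, with 6 of 8 measured ones higher in KO (75%, median 0.056). Among other genes of their levels 69.6% stood higher, with a median of 0.030. Crem read 11.76, 11.64 and 11.80 in WT and 11.94, 11.80 and 11.81 in KO (0.12 ± 0.06, limma adjusted p = 0.993). Tbpl1, the TBP-like factor of round spermatids, stood at 0.088 ± 0.060 and Brwd1, a bromodomain gene, at 0.12 ± 0.08. All 3 overlapped between the groups. With the mean of the gene's probe sets in place of the brightest one, the differences were 0.037 for Crem, 0.054 for Brwd1 and 0.024 for Tbpl1, and that of Tbpl1 was 0.026 without WT replicate 1.

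Promoters of the members were searched for the cAMP response element, the CREM binding motif TGACGTCA, and for its core, TGACG or CGTCA, on both strands. RefSeq windows of 300 bases (250 before to 50 after the start, GRCm38.p6) were given for 30 of the 34 genes, in 40 windows. The full element, which holds the core on both strands, was found in 2 of 40 windows (5.0%, against 1.79% of 32851 windows of all genes). The core was found in 13 of 40 (32.5%, against 20.8%). Windows of the same gene can overlap and hold the same site. Counted by gene, the full element was found in 2 of 30 (6.67%, against 2.03% of all genes). The core was found in 11 of 30 genes (36.7%, against 23.0%). Both members with the full element are shown, with its letters in capitals, as 60 bases upstream of the start and 5′ to 3′ on the gene's strand. Izumo1 (chr7:45621688-45621747, + strand) holds it 96 to 89 bases before the start, and Spag4 (chr2:156065149-156065208, + strand) 37 to 30 bases before.
Izumo1: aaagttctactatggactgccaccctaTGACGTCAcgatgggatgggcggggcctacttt
Spag4: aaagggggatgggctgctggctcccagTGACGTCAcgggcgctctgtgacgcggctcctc

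Stretches with only the core, in capitals, are shown for 2 genes without overlap between KO and WT, Acrbp (chr6:125049867-125049926, + strand) and Zpbp2 (chr11:98550922-98550981, + strand). Spaca1 (chr4:34050103-34050162, − strand) is shown because it holds the core 2 times.
Acrbp: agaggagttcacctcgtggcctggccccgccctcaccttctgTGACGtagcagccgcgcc
Zpbp2: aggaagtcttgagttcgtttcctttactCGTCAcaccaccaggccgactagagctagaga
Spaca1: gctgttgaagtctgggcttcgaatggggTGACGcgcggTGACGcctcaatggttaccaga
The 2 genes with the full element differed between KO and WT by 0.12 ± 0.06 (Izumo1) and 0.038 ± 0.046 (Spag4), and of the 3 with the core shown Zpbp2 stood at 0.13, Acrbp at 0.090 and Spaca1 at 0.020. Acrbp and Zpbp2 were picked for display by their lack of overlap, so their differences do not relate the motif to the knockout. The core also lay in the windows of Gopc (−0.012), Lyzl4 (0.12), Spaca3 (0.098), Spesp1 (0.098), Dpy19l2 (0.096) and Pick1 (0.13). Of these only Pick1 was free of overlap. Lyzl6, with the largest difference of the 34, held neither in its window. Neither was found for Crisp2, Gsg1 and Vps54, also without overlap. Acr, free of overlap too, had no window to search. A match is a sequence of letters and no measured binding.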

How the data were processed

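The values are those the authors deposited, already normalized and, judged by their range, in log2 units, for 1 array per mouse. The submitters' processing notes name GCOS 1.4. How background was corrected and arrays were normalized is not stated in the labels. Control probe sets (64) did not enter, and of the rest the upper 60% by mean log2 were tested (27022, lowest mean 6.02). Names came from the platform annotation, updated with RefSeq (GRCm38.p6); 99.4% of single-gene probe sets matched. KO was compared with WT by limma 3.58.1 (R 4.3.3, lmFit, eBayes with trend, two-sided), Benjamini-Hochberg adjusted over all kept probe sets at 0.05. Errors are limma SEs with n = 3 mice a group. Genes were represented by their brightest probe set. The pipeline was tested on simulated data. Members and lists were chosen with earlier results of these data known, so medians and counts over members carry no test. Per-array values were given by a rule (in each role the 4 smallest p and 2 brightest, and paralogues); those of Acrbp, Spink2, Izumo1, Spaca1, Spaca4, Spam1, Acrv1, Gopc, Dpy19l2, Hook1, Capza3 and Spag4 were added after seeing them. The number of arrays limits the precision. Protein sequences were not analysed here. Figures used matplotlib 3.10.9.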

Additional observations from a re-analysis of the deposited data

How the results depend on the processing

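No member probe set passed under any of 16 alternatives (limma, 0 to 7 at an unadjusted p under 0.05). The count over all probe sets was 11, and became 7 with the upper 40% of probe sets, 46 with array weights, 2 without WT replicates 1 and 2, and 2 to 12 without single arrays. Members higher in KO numbered 20 to 32 over 18 alternatives, 20 of them with array weights. The member median of 0.079 was 0.027 with array weights, 0.013 without WT replicates 1 and 2 and 0.042 to 0.11 without single arrays. Its excess over genes of similar level ran from 0.000057 to 0.059 without single arrays. The Alkbh1 difference was −3.30 without WT replicates 1 and 2 and no longer passed. The labels do not say that replicate numbers pair the mice, and correlations of deviations cannot decide it with 3 arrays a group. These correlations were 0.22, −0.024 and 0.096 for numbers 1, 2 and 3, and WT replicate 2 correlated best with KO replicate 3. With the replicate block 9 probe sets and 0 of the members passed. Of the 41 named genes 24 kept their direction throughout. Signs turned with quantile normalization for Spink2 (−0.018), Spaca1 (−0.015), Spag4 (−0.0019) and Spaca7 (−0.021), and with median centring for Spaca7 (−0.0018). With cyclic loess, chosen after seeing the data, they turned for Spink2 (−0.018), Spaca1 (−0.015) and Spaca7 (−0.024). With array weights they turned for Actl7a (−0.015), Agfg1 (−0.045), Capza3 (−0.014), Spink2 (−0.0086), Spaca1 (−0.024), Acrv1 (−0.0057), Dpy19l2 (−0.016), Spaca7 (−0.048) and Eqtn (−0.045). Without WT replicates 1 and 2 they turned for Actl7a (−0.048), Agfg1 (−0.059), Capza3 (−0.051), Spink2 (−0.021), Spaca1 (−0.049), Acrv1 (−0.036), Dpy19l2 (−0.051), Spaca7 (−0.055) and Eqtn (−0.073). Gopc turned with the mean of its probe sets (0.0076) and Tbpl1 with its middle probe set (−0.039). Without single arrays the ranges crossed zero for Dkkl1 (−0.057 to 0.022), Csnk2a2 (−0.038 to 0.14), Agfg1 (−0.080 to 0.12), Spata16 (−0.034 to 0.011), Capza3 (−0.027 to 0.13), Spink2 (−0.019 to 0.043), Spaca1 (−0.036 to 0.067), Dpy19l2 (−0.093 to 0.21), Spaca7 (−0.064 to 0.047), Hook1 (−0.052 to 0.14), Tsga10 (−0.029 to 0.035) and Gopc (−0.055 to 0.042). The cause was not tested.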
